A study of Mus musculus with 5 samples.

Results

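Glypicans, a syndecan and the enzymes that build, supply and edit heparan sulfate were followed across 5 single-channel Affymetrix arrays of mouse forelimb bud RNA taken at E11.5. The set named 10 genes, and 9 of them were measured here: the glypican genes Gpc1, Gpc3, Gpc4 and Gpc6, the syndecan gene Sdc1, the chain polymerase gene Ext1, the endosulfatase genes Sulf1 and Sulf2, and the sulfate donor gene Papss2. Ndst1 is not analysed here. The 9 genes were found by their gene symbol in the platform annotation and had 25 probe sets, out of 45037 probe sets and 18193 genes with a probe set of a single symbol. The genes were picked from the wider family with the values of these arrays in view. Their differences between the groups are therefore a description, with no p-value printed. Where they are counted or coloured by an adjusted p threshold, this describes the set and tests nothing. Tests are given for other genes of the pathway, whose lists were drawn up by function but with earlier results of these data known.

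The double mutant group held 2 arrays, from embryos carrying Sost-/- and Sostdc1-/-, and the control group held 3 arrays from wild-type embryos. The design text gives the C57Bl/6 strain for the samples and states that embryos were not pooled. On the arrays, both double mutant samples were high in Xist, the RNA of the inactive X chromosome (12.37 and 11.75 on a log2 scale), and also in the Y-linked genes Eif2s3y (8.36 and 8.36) and Kdm5d (8.23 and 8.37). Wild type replicate 1 was high in Xist (12.28) and low in Eif2s3y (3.20) and Kdm5d (2.59). Wild type replicates 2 and 3 were low in Xist (5.73 and 5.70) and high in Eif2s3y (8.49 and 8.42) and Kdm5d (8.47 and 8.41). The double mutant samples thus carried both X-inactivation and Y-linked signal, which goes against the statement on pooling, and its source was not tested. Since it held for both, no comparison can be given without such samples. Sost and Sostdc1 encode related secreted proteins that bind LRP family co-receptors and dampen Wnt signalling, and the Sostdc1 protein also binds BMPs. The labels do not say which part of either gene was deleted or whether more than 1 litter was used, so p-values measure only the spread between these 5 samples.

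Heparan sulfate is a long sulfated sugar chain carried on core proteins at the cell surface and in the matrix. Glypicans hold the chains on a lipid anchor in the outer membrane, while syndecans span the membrane. The chain binds Wnt, Hedgehog, BMP and FGF proteins, and its sulfation pattern, set by enzymes in the Golgi and trimmed outside the cell by the Sulf enzymes, sets how tightly they bind. In the limb bud these ligands come from the apical ridge, the posterior margin and the ectoderm, and act across the mesenchyme.

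The deposited intensities had array medians of 44.4 and 42.1 in double mutants and of 41.7, 40.7 and 39.4 in wild type. The medians thus did not overlap between the groups. The intensities were used after log2 transformation, with no further scaling. Each level below is a log2 intensity. Each difference is double mutant minus wild type on that scale, with ± limma's standard error (SE). Levels of different probe sets are not comparable, since each binds its target with its own strength. For each targeted gene limma called 1 of 2 probe sets lower in double mutants (adjusted p under 0.05). The differences were −2.17 ± 0.20 (SE) for Sost on 1450179_at and −2.35 ± 0.37 for Sostdc1 on 1460250_at. The other Sost probe set, 1421245_at, was also lower without overlap (−0.73) but was not called. The other Sostdc1 probe set, 1449340_at, differed by 0.05. The bacterial control Dap had a mean log2 level of 6.74 and 7.06 in double mutants and of 3.29 to 3.43 in wild type. The 3′ minus 5′ difference of the Actb control probe sets overlapped between the groups. It was 0.65 and 0.56 in double mutants and 0.20, 0.24 and 0.68 in wild type. For the Gapdh control probe sets it was 0.27 and 0.16 in double mutants and −0.14 to −0.06 in wild type, without overlap. Preparation of the RNA and genotype therefore cannot be told apart in any difference given here. The limb mesenchyme list (Prrx1, Tbx5, Hand2 and others) had mean levels of 10.69 to 10.81 over the 5 arrays. Of its 9 genes, limma called 0 and 1 reached an unadjusted p under 0.05.

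Between the groups, 6 of the 25 probe sets passed an adjusted p under 0.05 in limma (Benjamini-Hochberg over all probe sets), 1 of them higher and 5 lower in the mutant arrays. Over all probe sets, 18.2% passed, 8.70% as higher and 9.52% as lower. Those shares depend on the scaling. With equal array medians 3776 of all probe sets were called higher and 5849 lower, against 3919 and 4287 as deposited. Quantile normalization gave 4452 and 4593. The groups did not overlap in 11 of the 25, with 3 higher and 8 lower, and in 45.2% of all probe sets (22.1% higher, 23.0% lower). The median difference was −0.25 over the 25 and −0.01 over all. The choice of genes used this contrast, so these counts describe the set, test nothing and are not read against the shares over all. With 1 probe set per gene, the brightest, 1 of the 9 genes counted as higher (Gpc1), 1 as lower (Sulf2) and 7 as neither. Of all genes, 14.7% passed on this basis, 6.56% as higher and 8.14% as lower. The groups then did not overlap for Gpc1, which was higher, and for Gpc4 and Sulf2, which were lower, and for 43.2% of all genes (20.2% higher, 23.0% lower). Without double mutant replicate 1, or without wild type replicate 2, 0 of the 25 passed in limma, as did 0 of all 45037, of which 14059 and 11115 had an unadjusted p under 0.05. With the Gapdh 3′ minus 5′ difference as a covariate the count was also 0 (4259 of all at an unadjusted p under 0.05). That covariate itself did not overlap between the groups, so a fit with it cannot separate it from genotype. Here and below, the counts and differences of that fit are imprecise and decide nothing.

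**Figure D1:**
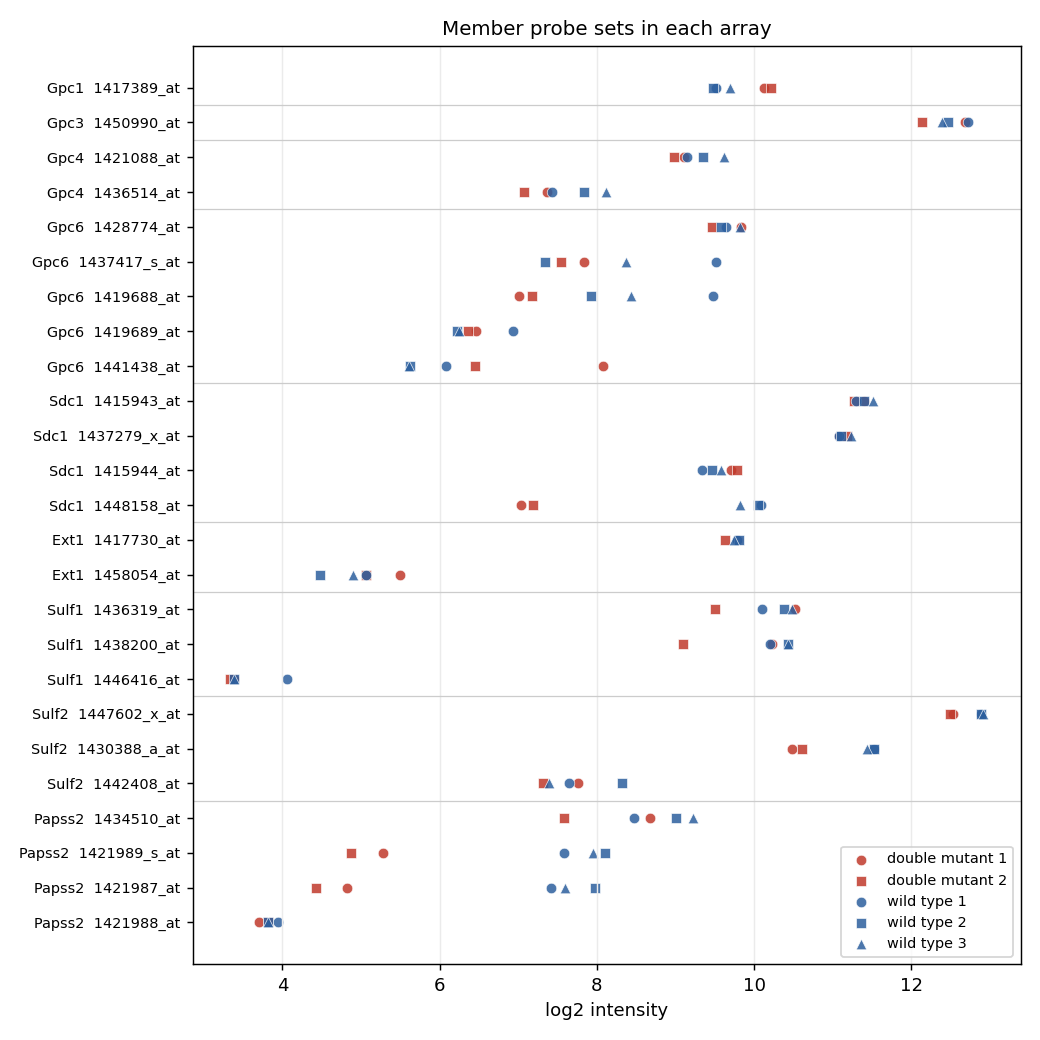
Log2 intensity (x axis) of each of the 25 probe sets (rows, grouped by gene) in each array, with double mutants in red and wild type in blue and 1 symbol shape per replicate number. Red and blue points stand clearly apart on Sdc1 1448158_at, Papss2 1421989_s_at and 1421987_at and Sulf2 1430388_a_at, while on the other 3 of Sdc1 they lie close together.

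Gpc1 encodes a glypican that is abundant in the developing nervous system and skeleton, and lies at chr1:92831645-92860211 (GRCm38.p6, as for all positions here). Its single probe set, 1417389_at, read 10.12 and 10.21 in double mutants and 9.51, 9.48 and 9.70 in wild type. Both double mutant arrays lay above all wild type arrays, by a mean of 0.60 ± 0.09 (SE), or 1.52-fold.

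Gpc3 encodes the glypican whose loss in humans causes an overgrowth syndrome, Simpson-Golabi-Behmel syndrome, and it acts on Hedgehog ligands in the mouse. Its probe set 1450990_at read 12.68 and 12.14 in double mutants and 12.72, 12.47 and 12.38 in wild type. The groups overlapped, and the difference of −0.12 ± 0.21 (SE) was smaller than the gap of 0.54 between the 2 double mutant arrays. On the X chromosome Gpc3 (chrX:52272426-52613974) lies next to Gpc4 (chrX:52051007-52164923), a paralog.

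Both probe sets of Gpc4 were lower in double mutants. On 1421088_at Gpc4 read 9.11 and 8.99 against 9.15, 9.35 and 9.61, a difference of −0.33 ± 0.15 (SE). On 1436514_at it read 7.37 and 7.07 against 7.43, 7.83 and 8.12, a difference of −0.57 ± 0.24. The groups did not overlap on either one, though wild type replicate 1 sat close to double mutant replicate 1 on both. The 3 arrays high in Xist were the 3 lowest for Gpc4 on both probe sets. For Gpc3 they were not, since they held its highest values (12.72 and 12.68) and its lowest (12.14). These 3 arrays were not alike in Y-linked signal, since Eif2s3y read 8.36 in both double mutants and 3.20 in wild type replicate 1. The part of the mixed X and Y signal in the Gpc3 and Gpc4 values was not tested.

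Gpc6, a glypican whose loss in humans shortens the limbs (omodysplasia), lies at chr14:116924920-117979529 and had 5 probe sets, with differences in both directions. The brightest, 1428774_at, read 9.84 and 9.46 in double mutants and 9.64, 9.58 and 9.82 in wild type, a difference of −0.03 ± 0.15 whose sign turned with quantile normalization. The groups overlapped fully on it. On 1419688_at Gpc6 read 7.01 and 7.18 against 9.47, 7.92 and 8.43, a difference of −1.51 ± 0.50, and on 1441438_at it read 8.07 and 6.45 against 6.09, 5.62 and 5.61, a difference of 1.49 ± 0.53. These 2 probe sets thus separated the groups in opposite directions. Wild type replicate 1 was the highest array on 1419688_at, 1419689_at and 1437417_s_at. On 1437417_s_at Gpc6 read 7.83 and 7.54 against 9.51, 7.34 and 8.37, a difference of −0.72 ± 0.68. Without wild type replicate 1 the 1419688_at difference was −1.08, with equal array medians it was −1.60, and with the Gapdh covariate it was 0.27. The last probe set, 1419689_at, read 6.46 and 6.36 against 6.93, 6.22 and 6.25, and differed by −0.06 ± 0.26.

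Sdc1 encodes syndecan-1, the main syndecan of epithelia, which also marks condensing mesenchyme in the embryo. It lies at chr12:8771396-8793716 and had 4 probe sets. Of these, 3 differed by 0.28 or less in size between the groups, and 1 was 7.30-fold lower in double mutants. On 1415943_at Sdc1 read 11.40 and 11.27 in double mutants and 11.30, 11.40 and 11.51 in wild type, a difference of −0.07 ± 0.09. On 1437279_x_at it read 11.08 and 11.18 against 11.08, 11.11 and 11.24, a difference of −0.01 ± 0.07 whose sign turned with quantile normalization. The arrays of the 2 genotypes were interleaved on both. On 1415944_at it read 9.70 and 9.78 against 9.34, 9.46 and 9.58, a difference of 0.28 ± 0.09 with no overlap. On 1448158_at it read 7.04 and 7.19 against 10.09, 10.04 and 9.82, a difference of −2.87 ± 0.11, and every double mutant array was far below every wild type array. The position of each probe set along the transcript was not known here, so whether 1448158_at reports a separate form of the transcript was not tested.

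In the ectoderm list, limma called 4 of 12 genes higher and 0 lower (6.56% and 8.14% over all genes), namely Epcam, Esrp1, Trp63 and Cdh1, which encodes E-cadherin (1.05 ± 0.21, SE, adjusted p = 0.0399). The other 8 genes were not called, and the lowest difference was that of the keratin gene Krt5, at −0.38 (adjusted p = 0.157). The summed linear intensity of the list, weighted to its brightest probe sets, was 6934 and 6890 in double mutants and 4816 to 5367 in wild type. Its part in the Sdc1 values was not tested, and in such bulk RNA a change in the number of cells of a type and a change in RNA per cell cannot be told apart.

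The 300 bases around the annotated start of Sdc1 (RefSeq, GRCm38.p6, plus strand, chr12:8771146-8771445, 250 bases before the start and 50 from it onward) are shown as context for the gene whose probe sets differed most among themselves. Capitals mark GGGCGG, the GC box bound by Sp family factors, on either strand.
Sdc1 promoter: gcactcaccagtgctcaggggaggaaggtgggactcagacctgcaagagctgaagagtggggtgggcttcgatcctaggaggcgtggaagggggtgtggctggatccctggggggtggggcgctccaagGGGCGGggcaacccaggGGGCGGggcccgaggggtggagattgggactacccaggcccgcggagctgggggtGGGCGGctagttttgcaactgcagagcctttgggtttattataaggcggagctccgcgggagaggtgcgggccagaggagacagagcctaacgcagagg
The window held 3 GC boxes, and 35.7% of the 32851 promoter windows of that length held at least 1. It held 0 matches to a TCF/LEF word (CTTTGAA or CTTTGAT or CTTTGTA or CTTTGTT) and 0 to the GLI word GACCACCC, on either strand. Those words were present in 16.9% and 0.807% of all windows. The same counts of 0 held for the other 6 windows of the set, which belonged to Gpc3, Gpc4, Sulf2 and Papss2. The absence of these letters says nothing on the factors, and the GC box was chosen after the sequences were seen.

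Ext1 encodes a glycosyltransferase that, with Ext2, extends the heparan sulfate chain (chr15:53068261-53346183). On its bright probe set, 1417730_at, Ext1 read 9.79 and 9.63 in double mutants and 9.78, 9.81 and 9.75 in wild type, a difference of −0.07 ± 0.07. The groups overlapped. Its dim second probe set, 1458054_at, read 5.50 and 5.06 against 5.06, 4.48 and 4.89, a difference of 0.47 ± 0.23, with overlap.

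Sulf1 and Sulf2 encode the extracellular sulfatases that remove sulfate groups from finished heparan sulfate, which loosens the hold of the chain on Wnt proteins and weakens FGF signalling. They lie at chr1:12692197-12861192 and chr2:166073899-166155683. Sulf2 was lower in double mutants on its 2 brighter probe sets. On 1430388_a_at Sulf2 read 10.48 and 10.61 in double mutants and 11.53, 11.53 and 11.44 in wild type, a difference of −0.95 ± 0.07, or 1.94-fold lower. On 1447602_x_at it read 12.53 and 12.50 against 12.89, 12.89 and 12.91, a difference of −0.38 ± 0.04, or 1.30-fold lower. The groups did not overlap on these, and the spread within each group was small. With the Gapdh covariate the 1430388_a_at difference was −0.58. The dimmer 1442408_at read 7.76 and 7.31 against 7.65, 8.31 and 7.39, with overlap, and differed by −0.25 ± 0.33.

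Sulf1 differed more within the double mutants than between the group means on its 2 bright probe sets. On 1436319_at it read 10.52 and 9.50 in double mutants and 10.10, 10.38 and 10.48 in wild type, a difference of −0.31 ± 0.34. On 1438200_at it read 10.22 and 9.10 against 10.20, 10.43 and 10.43, a difference of −0.70 ± 0.36. On both, double mutant replicate 2 was the lowest array and replicate 1 lay at or near the wild type range, a gap of 1.02 and 1.13 between the 2 double mutant arrays. The third probe set, 1446416_at, was dim at 3.34 to 4.06 in all arrays, close to the bacterial control Trpn (3.05 to 3.14), and read near background.

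**Figure D2:**
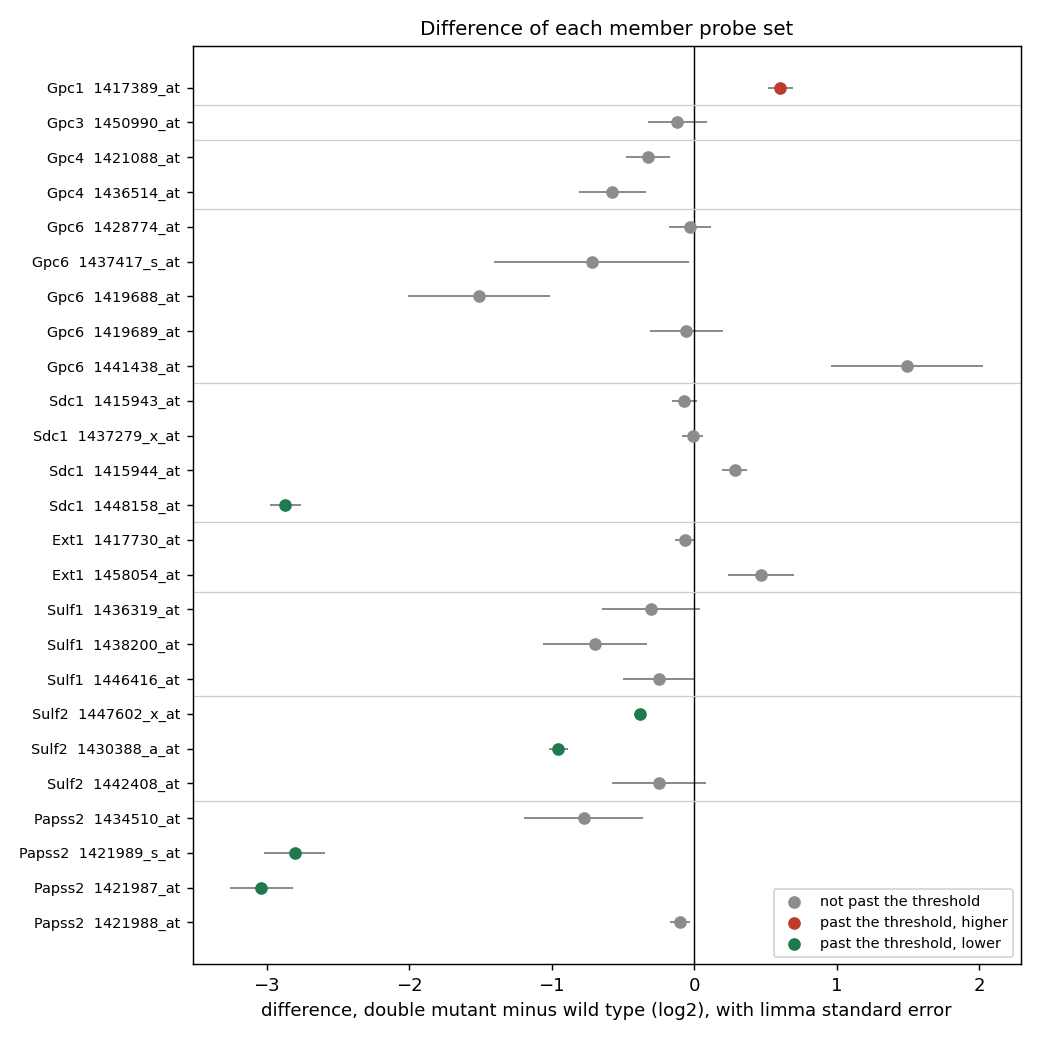
Difference of each probe set (x axis, log2, double mutant minus wild type) with limma's standard error as bars; green points passed as lower, red as higher and grey did not pass. Sdc1 and Papss2 each have probe sets near 0 beside others near −2.9, and Gpc6 spans −1.51 to 1.49.

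Papss2 encodes a synthase of PAPS, the activated sulfate that every sulfotransferase uses, and its loss in the brachymorphic mouse gives short limbs through undersulfated cartilage. It lies at chr19:32595669-32667187. Its 1421987_at had the lowest difference of the 25 probe sets. On 1421987_at Papss2 read 4.82 and 4.43 in double mutants and 7.41, 7.97 and 7.60 in wild type, a difference of −3.04 ± 0.22, or 8.20-fold lower. On 1421989_s_at it read 5.27 and 4.87 against 7.58, 8.10 and 7.95, a difference of −2.80 ± 0.21, or 6.98-fold lower. Wild type arrays lay far above both double mutant arrays on these 2 probe sets. With 16 added to each intensity before log2 the differences were −2.42 and −2.34, and with the Gapdh covariate they were −4.04 and −4.09. Both probe sets derive from the same sequence record in the annotation, as does the dim 1421988_at (3.70 to 3.95 in all arrays, a difference of −0.10 ± 0.07), so they are not independent readings.

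The brightest Papss2 probe set, 1434510_at, comes from another record and overlapped between the groups. It read 8.67 and 7.58 in double mutants and 8.48, 9.01 and 9.22 in wild type, a difference of −0.78 ± 0.42. Double mutant replicate 1 lay inside the wild type range and replicate 2 below it. The highest and lowest differences were 2.94 apart over the 4 Papss2 probe sets and 3.15 apart over the 4 of Sdc1. A spread of at least 2 (also in Gpc6, from −1.51 to 1.49) was seen in 3 of the 7 genes of the set with several probe sets. It was seen in 11.6% of the 9010 such genes on the array. The 2 shares are not matched, since these 3 genes had 4 or 5 probe sets each and the array share covers all genes with at least 2. The genes were also picked with these values in view, so the shares are not read against each other.

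The RefSeq table lists 2 starts for Papss2 on the plus strand of chromosome 19, and both windows (GRCm38.p6, chr19:32595465-32595764 and chr19:32619755-32620054, with GC boxes in capitals) are shown because the probe sets of the gene disagree.
Papss2 first start: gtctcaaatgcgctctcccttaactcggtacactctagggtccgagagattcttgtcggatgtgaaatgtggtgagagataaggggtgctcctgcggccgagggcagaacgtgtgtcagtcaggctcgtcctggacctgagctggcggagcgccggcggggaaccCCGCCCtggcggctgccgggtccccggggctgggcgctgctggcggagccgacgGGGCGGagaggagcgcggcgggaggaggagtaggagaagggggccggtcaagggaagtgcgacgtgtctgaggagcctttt
Papss2 second start: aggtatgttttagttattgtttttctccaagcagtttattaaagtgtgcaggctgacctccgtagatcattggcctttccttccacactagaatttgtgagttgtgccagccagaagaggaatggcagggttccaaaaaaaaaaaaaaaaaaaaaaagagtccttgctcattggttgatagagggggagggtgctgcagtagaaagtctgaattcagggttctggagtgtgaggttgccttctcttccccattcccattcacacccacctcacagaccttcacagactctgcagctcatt
The first window has a GC content of 66.3% and 2 GC boxes, and the second 44.3% and 0. Which start feeds the transcripts read by each probe set was not tested.

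Papss2 and Sulf1 differed between the 2 double mutant arrays, and so did several early cartilage genes. Such a gap was not particular to the cartilage list. Outside it, Cspg4 read 7.20 and 5.84 in double mutants, Dcn 8.68 and 7.79 and Mrc1 6.80 and 5.94. Within it, Cnmd read 8.22 and 8.05. Of the 25 probe sets, 4 had double mutant arrays at least 1 apart on the log2 scale (Papss2 1434510_at, Sulf1 1436319_at and 1438200_at, and Gpc6 1441438_at). In each of the 4 replicate 2 was the lower. Of all probe sets, 1.52% were at least that far apart. The genes were picked with these values in view and 2 of the 4 probe sets belong to Sulf1. The 2 shares are therefore not read against each other. In the cartilage list, Col2a1, the main cartilage collagen, read 11.05 and 10.29 in double mutants and 11.09, 11.52 and 11.76 in wild type. Acan, the cartilage proteoglycan, read 6.33 and 5.17 against 5.83, 6.45 and 6.98. Acan ordered the 5 arrays exactly as Papss2 1434510_at did, with double mutant replicate 2 lowest and wild type replicate 3 highest. The summed intensity of the 8 cartilage genes, weighted to the bright Col9a1 and Col2a1, was 8045 and 6024 in double mutants and 7981 to 10179 in wild type. limma called 0 of the 8 (1 at an unadjusted p under 0.05), with differences from −0.79 for Col2a1 to 0.12 for Cnmd, and their part in the Papss2 and Sulf1 values was not tested.

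**Figure D3:**
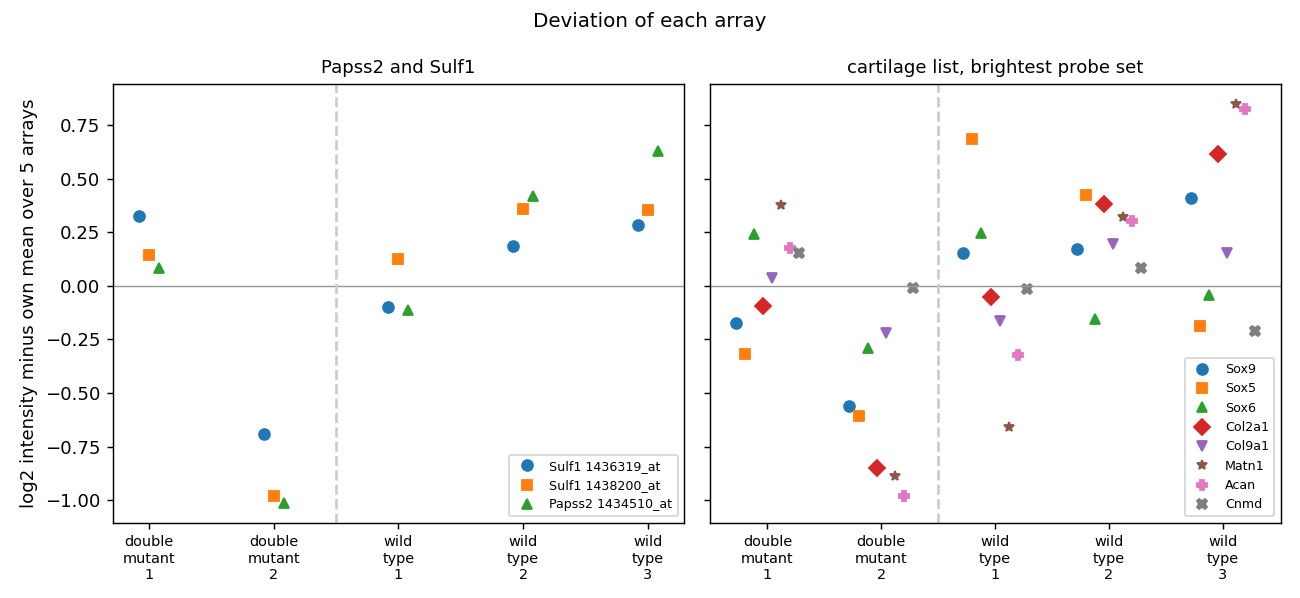
Log2 intensity minus the probe set's own mean over the 5 arrays (y axis) for each array (x axis). The left panel holds only the Papss2 and Sulf1 probe sets on which double mutant replicate 1 was at least 1 above replicate 2. That replicate 2 lies below replicate 1 there follows from this choice. The right panel holds the 8 cartilage genes. Double mutant replicate 2 is the lowest array for the 3 probe sets on the left and for Sox9, Sox5, Sox6, Col2a1, Col9a1, Matn1 and Acan on the right, but not for Cnmd.

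The 3 genes whose array pattern was nearest to Papss2 1434510_at were Adamts5, an aggrecan-cleaving protease gene, Arpp21 and the transcription factor gene Maf. Likeness was the root mean square distance over the 5 arrays after each probe set's own mean was taken off, among 20202 probe sets above the median level. The distances were 0.052, 0.082 and 0.089 on the log2 scale. Adamts5 on 1456404_at read 7.19 and 6.01 in double mutants and 6.93, 7.37 and 7.68 in wild type.

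Other genes of the pathway were taken by function, in 6 lists, with earlier results of these data known. The p-values and counts of these genes are therefore read as a description. Of these, 5 of 74 rose and 8 fell by their brightest probe set (limma, adjusted over all probe sets). Over all 18193 genes on this basis, 6.56% were called higher and 8.14% lower. The median difference was −0.04 over the 74 and −0.02 over all genes. The counts of called genes were 0 and 0 with the Gapdh covariate and without double mutant replicate 1 or wild type replicate 2, and 8 and 15 when the probe sets of a gene were averaged. Without double mutant replicate 2 they were 1 and 2, without wild type replicate 1 they were 1 and 3 and without wild type replicate 3 they were 2 and 3.

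Of the 13 called genes, 6 belong to the enzymes that build the stretch that links the chain to its core protein or that extend the chain. In this group 2 of 9 measured genes rose and 4 fell, with a median of −0.40. Ext2, the partner of Ext1 in the polymerase, read 8.78 and 8.62 in double mutants and 9.37, 9.28 and 9.21 in wild type. It fell by 0.59 ± 0.08 (SE, adjusted p = 0.0183), and its 2 dimmer probe sets did not pass. Xylt2, which adds the first xylose, fell by 0.55 ± 0.10 (adjusted p = 0.0323) on its 1 probe set. B3galt6, which adds a linkage galactose, differed by −0.70 ± 0.13 (adjusted p = 0.0354), while its 2 dimmer probe sets were called higher (1.03 and 1.57). Extl2, which can cap the linkage stretch, differed by −0.40 ± 0.08 (adjusted p = 0.0440), with its second probe set at −0.10 and not called.

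Extl3, which starts the heparan sulfate chain, rose by 0.66 ± 0.14 (adjusted p = 0.0463), and its dimmer probe set was called lower (−1.07). Fam20b, the kinase that primes the linkage xylose, read 9.56 and 9.58 in double mutants and 9.01, 8.98 and 9.12 in wild type, a rise of 0.53 ± 0.06 (adjusted p = 0.0130). Of its 2 dimmer probe sets, 1 was called lower (−2.02) and 1 higher (1.56). With quantile normalization B3galt6 was not called (adjusted p = 0.0559).

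**Figure D4:**
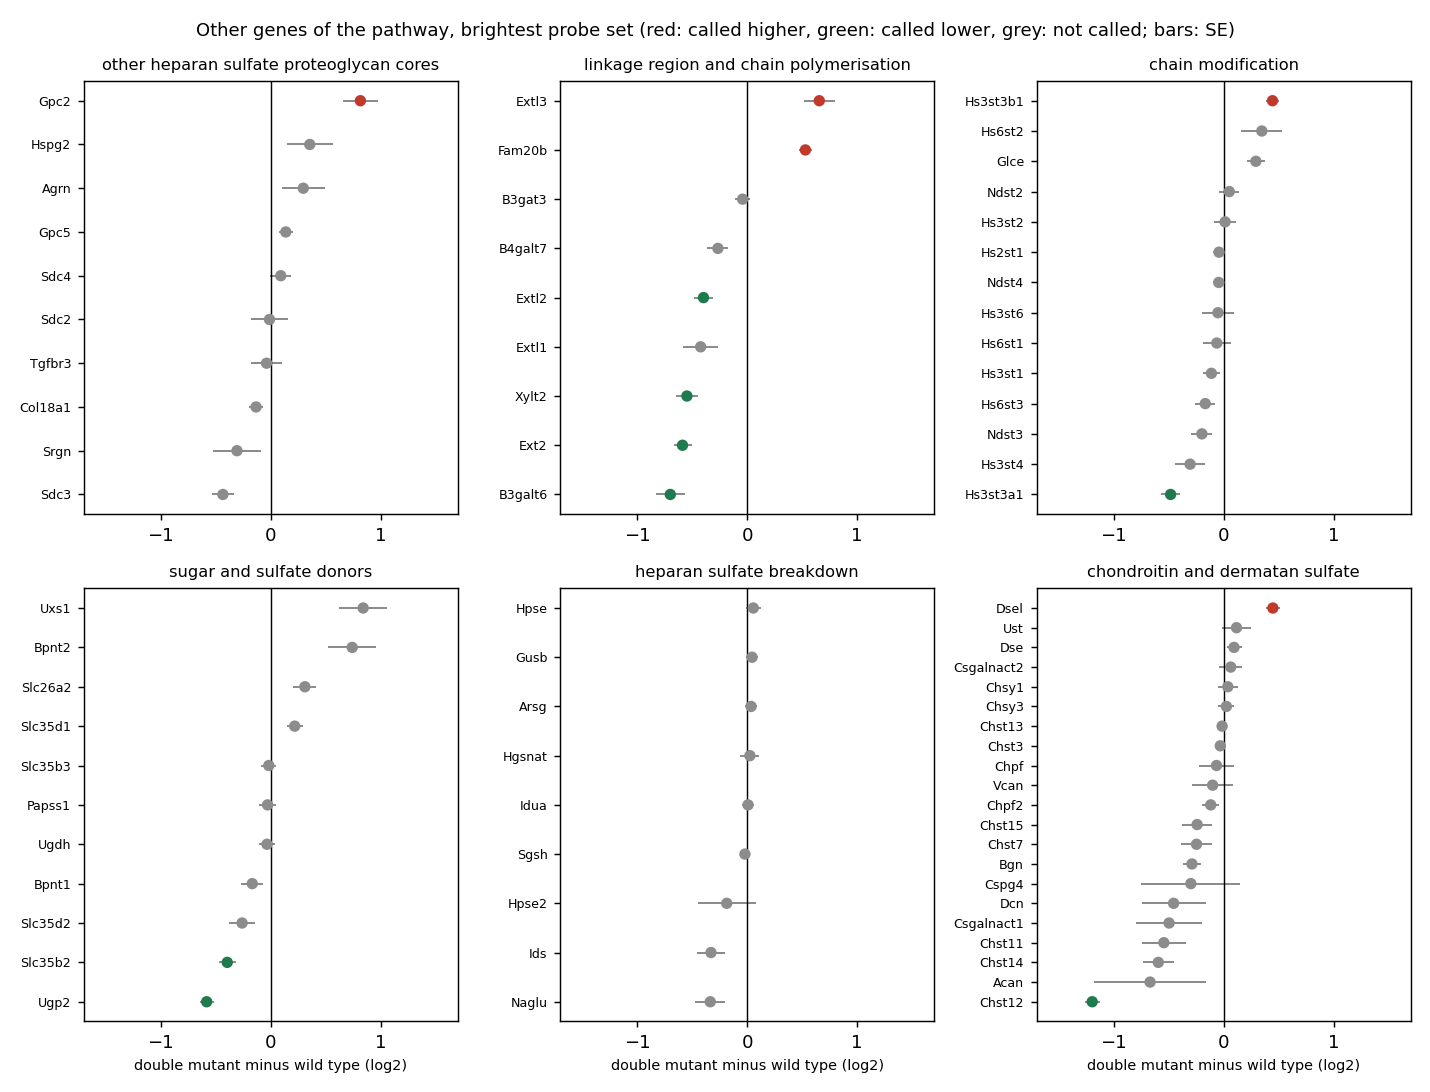
Difference (x axis, log2, double mutant minus wild type, bars SE) of each of the 74 other pathway genes by its brightest probe set, in 6 lists. The linkage and polymerisation list holds 6 of the 13 called genes, while the breakdown list holds 0.

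Of the other core protein genes, 1 of 10 rose and 0 fell, with a median of 0.04. Gpc2, a glypican of the embryonic nervous system, read 8.58 and 8.45 in double mutants and 7.97, 7.50 and 7.63 in wild type, a rise of 0.82 ± 0.16 (SE, adjusted p = 0.0378). The next smallest p-values in this list belonged to Sdc3, a syndecan found in limb mesenchyme (−0.44 ± 0.10, adjusted p = 0.0578, and 0.0376 with equal array medians), and Gpc5 (levels of 3.27 to 3.51, difference 0.14 ± 0.06, adjusted p = 0.243). Sdc3 was called lower on 1 of its 2 other probe sets (−0.78). Other probe sets of this list were called higher in 1 case and lower in 4.

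In the list of enzymes that modify the chain, 1 of 14 rose and 1 fell, with a median of −0.05. The paralogs Hs3st3a1 and Hs3st3b1, both of which add 3-O-sulfate, were called in opposite directions. Hs3st3a1 differed by −0.48 ± 0.09 (SE, adjusted p = 0.0329, and 0.0588 with quantile normalization), and Hs3st3b1 by 0.44 ± 0.06 (adjusted p = 0.0191, and 0.0555 with equal array medians). Of the 3 dimmer Hs3st3b1 probe sets, 1 was called lower (−1.13). Glce, which converts glucuronic to iduronic acid, stood at 0.29 ± 0.08 (adjusted p = 0.0850), with its 2 dimmer probe sets called lower (−2.13 and −0.67). The list members Hs6st2 and Hs2st1 were not called, but each also had a dimmer probe set called lower.

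Among genes that supply sugar and sulfate donors, 0 of 11 rose and 2 fell, with a median of −0.03. Ugp2, which makes UDP-glucose, read 10.36 and 10.36 in double mutants and 10.85, 10.98 and 10.99 in wild type. It fell by 0.58 ± 0.06 (SE, adjusted p = 0.0122). Of its other 4 probe sets, 2 were also called lower (both −0.48) and 2 were not called (0.18 and 0.44). Slc35b2, the Golgi transporter of PAPS, fell by 0.40 ± 0.08 (adjusted p = 0.0394), with its second probe set at −0.36 (adjusted p = 0.134). Uxs1, which makes UDP-xylose, stood at 0.84 ± 0.22 (adjusted p = 0.0711, and 0.0483 with quantile normalization), and a dim probe set of it was called higher (1.13). Papss1, the paralog of Papss2, differed by −0.03 on its 1 probe set (adjusted p = 0.824). Other probe sets of this list were called higher in 2 cases, which included 1 of Slc35d1 (1.48), and lower in 2.

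In the list of heparan sulfate breakdown, limma called 0 of 9 genes by their brightest probe set. On that basis 0 reached an unadjusted p under 0.05, with differences from −0.34 to 0.06. The smallest p-values were those of Ids (−0.33 ± 0.12, SE, adjusted p = 0.158), which removes sulfate from iduronic acid, Naglu (−0.34 ± 0.14, adjusted p = 0.191) and the heparanase gene Hpse (0.06 ± 0.07, adjusted p = 0.611). Of the 5 dimmer Ids probe sets, 1 was called lower (−0.74). The dimmer probe set of Gusb (−1.33) and that of Idua (−0.77) were also called lower, so the list was not unchanged on every probe set.

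Among chondroitin and dermatan sulfate genes, whose chains draw on the same linkage enzymes and the same PAPS, 1 of 21 rose and 1 fell, with a median of −0.12. Chst12, a chondroitin 4-O-sulfotransferase gene, read 5.82 and 5.71 in double mutants and had a mean of 6.96 ± 0.06 (SD, n = 3) in wild type. It fell by 1.20 ± 0.07 (SE, adjusted p = 0.0058). Dsel, a dermatan sulfate epimerase gene, rose by 0.45 ± 0.06 (adjusted p = 0.0182, and 0.0532 with equal array medians). Chst14, which sulfates dermatan, had the next smallest p, at −0.59 ± 0.14 (adjusted p = 0.0581, and 0.0237 with equal array medians).

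Over all genes, limma called 6.56% higher and 8.14% lower by the brightest probe set. Of the remaining cell type lists, endothelium had 0 of 8 genes called higher and 4 lower, from Pecam1 at −1.98 (adjusted p = 0.0066) to Egfl7 at 0.10 (not called). Cdh5 (−0.06), Kdr (−0.03) and Tek (−0.06) were not called either. The summed intensity of the endothelium list, also weighted to its brightest probe sets, was 1762 and 1675 in double mutants and 2193 to 2308 in wild type. Blood had 2 of 6 lower, from Alas2 (−1.89) to Hba-a1 (0.17), whose probe set was dim at 3.46 to 3.75 in all arrays. Muscle progenitors had 1 of 6 lower, from Myod1 (−1.10) to Pax3 (0.79). limma called 0 of 7 macrophage genes (4 at an unadjusted p under 0.05) and 0 of 5 neural and glial genes (1 at that p), ranging from Mrc1 (−0.74) to Lyz2 (0.63) and from Stmn2 (−0.41) to Elavl4 (0.55). The extremes of the limb mesenchyme list were Meis2 (−0.34) and Tbx5 (0.57). The part of these cells in the values of the heparan sulfate genes was not tested.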

How the data were processed

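Total RNA of forelimb buds was amplified and labelled with biotin, per the labels' protocols. The authors deposited linear intensities, 1 per probe set and array, and RMA and limma are named, per the submitters' processing notes, without versions. Other settings are not given in the sources used here. Log2 was taken of the deposited intensities, with no further normalization, and 64 manufacturer controls were left out of 45101 probe sets. Symbols came from the platform annotation: 34945 tested probe sets had 1 symbol, 932 several and 9160 none.

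Groups (2 double mutant and 3 wild type arrays) were compared by limma (version 3.58.1, R version 4.3.3), without covariate, with Benjamini-Hochberg adjustment over 45037 probe sets and a threshold of 0.05. The number of arrays limits the precision. Lists stand by their counts and medians, with the brightest probe set (highest mean over the 5 arrays) for a gene. Alternatives were a filter on dim probe sets, equal medians, quantile normalization, an offset of 16, a trended prior, a replicate block, a covariate, suffix filtering, probe set averaging and leaving out each array.

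Named were all probe sets of the 9 genes, every called gene of a pathway list (else up to 3 with the smallest p), the extremes of each cell type list and 3 nearest patterns. The members and lists were chosen with earlier results of these data known. Promoters and positions are from RefSeq, GRCm38.p6. Some pathway genes are not analysed here.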

Additional observations from a re-analysis of the deposited data

How the results depend on the processing

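When each array was left out in turn, the calls over all probe sets ran from 0 to 5108 against 8206, the set's higher calls from 0 to 1 and lower calls from 0 to 5, and the pathway genes' higher calls from 0 to 2 and lower calls from 0 to 3. Since the Gapdh 3′ minus 5′ covariate did not overlap between the groups, a fit with it cannot decide on a cause. With it these 5 counts were all 0. With a replicate block on the arrays numbered 1 and 2, they were 2351 over all, 0 and 1 (Sdc1 1448158_at) in the set and 0 and 0 in the pathway lists. That fit used 4 arrays. Same-numbered arrays share only a number: their deviations from the group means correlated at 0.0895 and 0.12 across probe sets. Without probe sets ending in _x_at or _s_at, 3 of the set were called lower, since 2 of the called ones were removed. The pathway genes called higher were 3 with equal array medians and 8 with averaged probe sets, where 15 were called lower. Under the other settings these counts stayed within 1.5 times the values given. Of 318 recomputed differences of the 25 probe sets, 272 moved by less than the spread within groups and 46 by more, and in 0 cases did a called difference change sign. Signal near background limits the dim probe sets, of which Sulf1 1446416_at and Papss2 1421988_at are examples.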
